A study of Mus musculus with 13 samples.

Results

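Siglech, Irf8, Kmo, Ly86, Tcf4, Spib, Runx2 and Ccr9 are 8 genes of plasmacytoid and other dendritic cells, followed here through sorted mouse bone marrow stem and progenitor cells. They were chosen by name, and Siglech, Irf8, Kmo and Ly86 were on the list because their signal was higher in transgenic than in wild-type KLS cells. That genotype difference in KLS cells is therefore given as a description, with no test. Of the 8 genes, 7 had probe sets of their own (87 of 208397 probe sets with a single gene), among 15123 genes measured. Above the filter on low values, which kept genes with a mean log2 intensity over 6, were 6 of the 8, among 10586 genes tested. Ccr9 fell under that filter, so it has values and no test. Spib is not analysed here, because no probe set was paired with it alone.

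The transgenic mice, called mCG-PR N17, express the leukaemia fusion PML-RARA from the murine cathepsin G locus. Their wild-type (WT) littermates were the controls, and all mice were Bl/6 Taconic. The cathepsin G locus is known for activity in early myeloid cells, so how much fusion each sorted cell makes depends on that locus. Each of the 13 Affymetrix exon arrays held RNA of bone marrow cells sorted from 1 mouse. KLS cells (Kit positive, lineage negative, Sca-1 positive) are a mixture of stem cells and multipotent progenitors. The cells called SLAM are known as a stem cell fraction sorted with the receptors CD150 and CD48. The groups were mCG-PR KLS at 6 weeks (n = 3), mCG-PR KLS at 13 weeks (n = 2), WT KLS (n = 4, replicates 1 and 2 at 13 weeks and replicates 3 and 4 at 12 weeks), mCG-PR SLAM at 7 weeks (n = 2) and WT SLAM at 6 weeks (n = 2). No wild-type KLS array was of 6 weeks, so genotype and age cannot be told apart for the young mCG-PR KLS cells.

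Plasmacytoid dendritic cells are immune sentinels that sense viral nucleic acids through Toll-like receptors and release type I interferon. They arise in bone marrow from progenitors that carry the receptor Flt3. In mouse, the E protein Tcf4 sets their identity, the Ets factor Spib acts with it, Irf8 is needed by dendritic cell progenitors, and Runx2 helps mature cells leave the marrow. Siglech is a sialic acid binding receptor at their surface that signals through the adaptor Tyrobp, and Ccr9 is the receptor for the chemokine Ccl25. Ly86 (MD-1) holds the receptor Cd180 at the surface of B cells and myeloid cells, and Kmo is the kynurenine hydroxylase of tryptophan breakdown. In bulk RNA of sorted cells, more cells of a type and more RNA per cell cannot be told apart.

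The sequences of 250 bases before the transcription start are shown for Siglech, Irf8, Kmo and Ly86, the members with the largest differences in KLS cells. They come from RefSeq on build GRCm38.p6, whose promoter table held 7 of the 8 genes (for Irf8, the entry at the annotated gene start). Capitals mark each Ets core, GGAA on either strand (TTCC as printed).
Siglech, chr7:55767934-55768183, plus strand: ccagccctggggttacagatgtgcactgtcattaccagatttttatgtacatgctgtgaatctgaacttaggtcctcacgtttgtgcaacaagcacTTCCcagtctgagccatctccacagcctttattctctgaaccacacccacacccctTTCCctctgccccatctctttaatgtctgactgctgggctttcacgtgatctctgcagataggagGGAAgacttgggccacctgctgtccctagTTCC
Irf8, chr8:120736108-120736357, plus strand: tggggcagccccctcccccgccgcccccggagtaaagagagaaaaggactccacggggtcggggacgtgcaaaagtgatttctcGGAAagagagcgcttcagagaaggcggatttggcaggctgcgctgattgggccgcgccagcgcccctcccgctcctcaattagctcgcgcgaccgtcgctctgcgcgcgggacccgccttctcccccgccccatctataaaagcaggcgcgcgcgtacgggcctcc
Kmo, chr1:175631943-175632192, plus strand: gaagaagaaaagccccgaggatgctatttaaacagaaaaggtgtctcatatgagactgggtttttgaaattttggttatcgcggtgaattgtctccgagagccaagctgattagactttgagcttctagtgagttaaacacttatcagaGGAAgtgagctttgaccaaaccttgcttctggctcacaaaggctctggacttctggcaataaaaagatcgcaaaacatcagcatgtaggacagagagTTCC
Ly86, chr13:37345095-37345344, plus strand: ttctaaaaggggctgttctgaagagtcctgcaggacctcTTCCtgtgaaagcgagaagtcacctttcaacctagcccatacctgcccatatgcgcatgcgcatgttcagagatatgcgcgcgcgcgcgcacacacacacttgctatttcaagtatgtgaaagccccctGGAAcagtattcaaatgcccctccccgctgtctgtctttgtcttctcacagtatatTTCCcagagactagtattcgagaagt
The Siglech window held 4 Ets cores and 3 E-boxes (CANNTG, the class of site that E proteins such as Tcf4 bind), and also 1 Runx site (TGTGGT). The Ly86 window held 3 Ets cores and 3 E-boxes, the Kmo window 2 Ets cores and 1 E-box, and the Irf8 window 1 Ets core and no E-box. Such matches are common: 93.4% of 32851 promoter windows of this length held an Ets core, 66.2% an E-box and 14.0% the Runx site, each searched on both strands. The Ets-Irf composite element, which contains the Ets core, was in 2.3% of windows and the interferon response element in 3.0%. Neither is in the 4 windows printed, which says only that these letters are not there.

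Some arrays stood apart before any comparison. Gene values are the median log2 intensity over a gene's probe sets, and their median standard deviation within groups was 0.325 for SLAM and 0.217 for KLS groups. Array median intensities ran from 98.6 to 115.3. Y-linked genes averaged 4.28 and 4.23 on the mCG-PR SLAM arrays, against 8.21 and 7.93 on the WT SLAM arrays, so that genotype, age (7 against 6 weeks) and Y-linked expression cannot be told apart in SLAM cells. They were also low (4.53) on mCG-PR KLS 6 weeks replicate 3. The gate genes followed the sort: Cd48 averaged 5.13 in WT SLAM, against 8.83 in WT KLS, and Slamf1 (CD150) 7.58 in WT SLAM, against 5.87 in WT KLS. In mCG-PR SLAM cells Cd48 averaged 4.25 and Slamf1 6.42. Kit averaged 9.57 or more and Ly6a (Sca-1) 8.85 or more in every group. The 8 neutrophil markers had array means of 7.50 and 8.61 in mCG-PR SLAM, and 8.61 and 10.55 in WT SLAM, where replicate 2 was the high array.

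In KLS cells Siglech, Irf8, Kmo and Ly86 were 2.07-fold to 2.56-fold higher in mCG-PR than in WT mice, and Tcf4, Runx2 and Ccr9 differed less. All 7 measured genes had a positive difference over both ages, with a median of 1.05 on the log2 scale, against 0.09 for all genes tested, of which 7191 of 10586 were positive. Without mCG-PR KLS 6 weeks replicate 3, the array with low Y-linked signal, that median was 1.10. The values by array are given first for the surface receptor, then for the transcription factors and last for Ly86, Kmo and Ccr9.

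Siglech had log2 intensities of 7.74, 7.62 and 8.11 in mCG-PR KLS cells of 6 weeks and 7.19 and 7.18 in those of 13 weeks, against 5.96, 6.21, 6.55 and 6.11 in WT KLS cells. Every mCG-PR array lay above every WT array, with the 13-week mice between the young transgenic and the wild-type mice. The difference was 1.36 ± 0.21 (standard error of the limma fit), or 2.56-fold. Of the 10586 genes tested, 3.55% were higher on every mCG-PR KLS array than on any WT KLS array. All 8 Siglech probe sets were higher in mCG-PR KLS, by 0.21 to 2.55. Probe set 4956074 carried the largest difference, with 8.40 to 9.31 on the 5 mCG-PR KLS arrays and 5.75 to 6.51 on the 4 WT KLS arrays. The same probe set read 5.64 and 5.95 in mCG-PR SLAM and 6.28 and 6.50 in WT SLAM.

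Irf8 had 7.82, 8.54 and 7.70 in mCG-PR KLS of 6 weeks and 7.67 and 7.09 in mCG-PR KLS of 13 weeks, against 6.53, 6.24, 6.80 and 6.62 in WT KLS. The groups did not overlap, and the difference was 1.22 ± 0.27. All 9 Irf8 probe sets were higher in mCG-PR KLS, 5 of them on every array. Tcf4, the E protein, had 9.07, 9.32 and 8.78 at 6 weeks and 8.82 and 9.03 at 13 weeks in mCG-PR KLS, against 8.40, 8.69, 8.65 and 8.60 in WT KLS. It is already high in WT KLS cells, and the groups did not overlap, with a difference of 0.42 ± 0.14 that was 0.19 by the mean of its probe sets. Of the 20 Tcf4 probe sets, 16 were higher in mCG-PR KLS, and 1 was higher on every array. Runx2 had 9.17, 9.03 and 8.83 at 6 weeks and 8.96 and 9.03 at 13 weeks in mCG-PR KLS, against 8.95, 8.52, 8.78 and 8.65 in WT KLS. Its groups overlapped, and the difference was 0.28 ± 0.18.

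Ly86 had 8.01, 8.74 and 7.78 in mCG-PR KLS of 6 weeks and 7.81 and 8.43 in mCG-PR KLS of 13 weeks, against 6.75, 7.00, 7.79 and 6.87 in WT KLS. Its groups overlapped by 1 pair of arrays, since WT KLS replicate 3 (7.793) lay just above the lowest mCG-PR array (7.779). The difference was 1.05 ± 0.26, and 1.28 without that WT array. Kmo had 7.53, 8.003 and 7.67 in mCG-PR KLS of 6 weeks and 7.33 and 7.30 in mCG-PR KLS of 13 weeks, against 6.10, 6.49, 7.07 and 6.12 in WT KLS. Its groups did not overlap, with a difference of 1.12 ± 0.21. Ccr9 had 5.83, 6.18 and 5.52 at 6 weeks and 5.35 and 6.39 at 13 weeks in mCG-PR KLS, against 5.31, 4.61, 6.35 and 5.30 in WT KLS, and its groups overlapped. Its gene value differed by 0.46 ± 0.31, although its 5 probe sets differed by only -0.12 to 0.16 and their mean by 0.08.

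**Figure D1:**
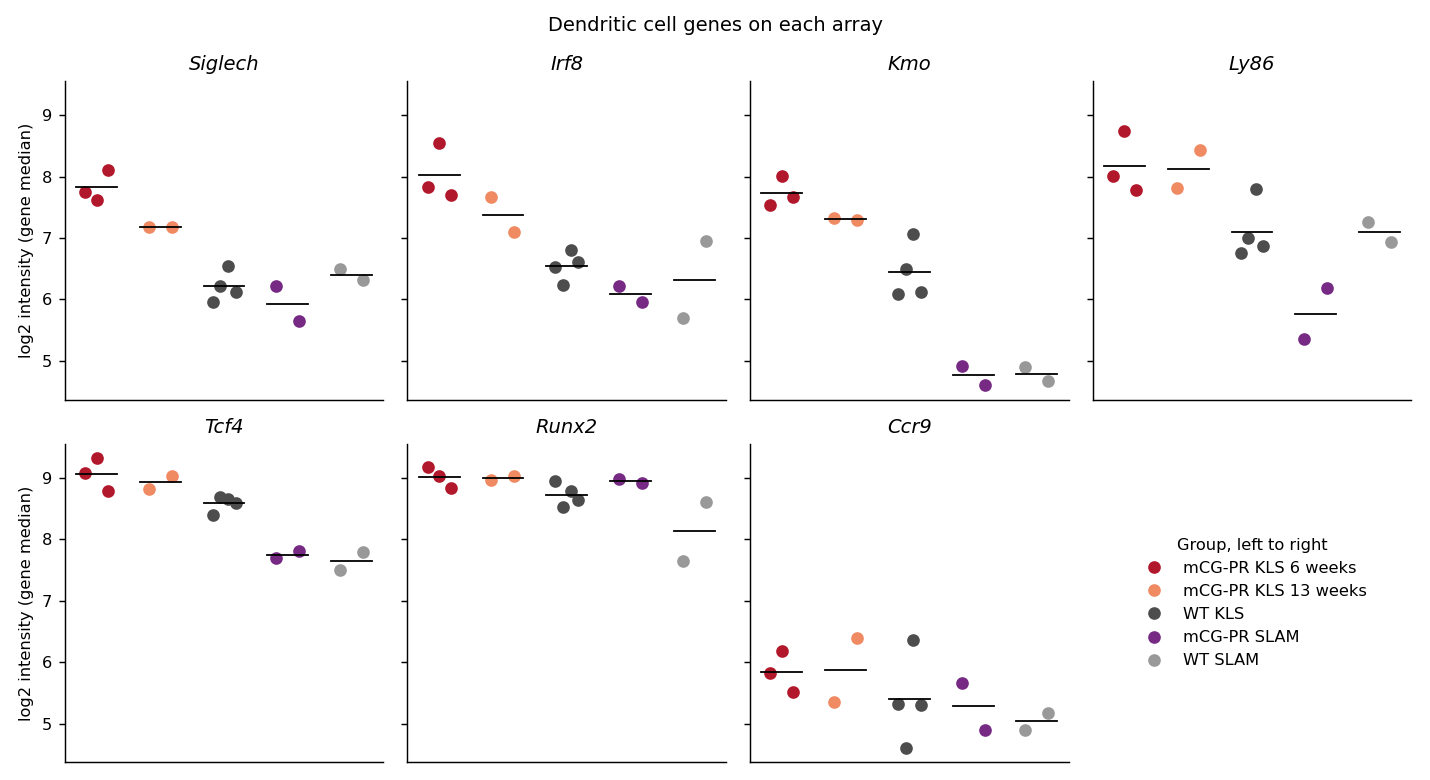
Log2 intensity (vertical axis) of the 7 measured dendritic cell genes, 1 panel per gene and 1 point per array, with a line at each group's mean and the groups from left to right as in the legend. Siglech, Irf8, Kmo and Tcf4 lie higher on all 5 mCG-PR KLS arrays than on the 4 WT KLS arrays, and Kmo lies under 5 on all 4 SLAM arrays.

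At the level of probe sets, 78 of 87 were higher in mCG-PR KLS, and 21 were higher on every mCG-PR KLS array, against 2.68% of all probe sets. These 21 comprised 7 of 19 Kmo, 5 of 9 Irf8, 4 of 6 Ly86, 3 of 8 Siglech, 1 of 20 Tcf4 and 1 of 20 Runx2 probe sets. None of the 5 Ccr9 probe sets was among them. Siglech, Irf8, Kmo and Ly86, which were chosen for being higher in this contrast, supplied most of the 21. Their excess over the 2.68% share follows from that choice and is no test. Ly86 probe sets differed by 0.56 to 1.99 and Kmo probe sets by -0.14 to 2.05.

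**Figure D2:**
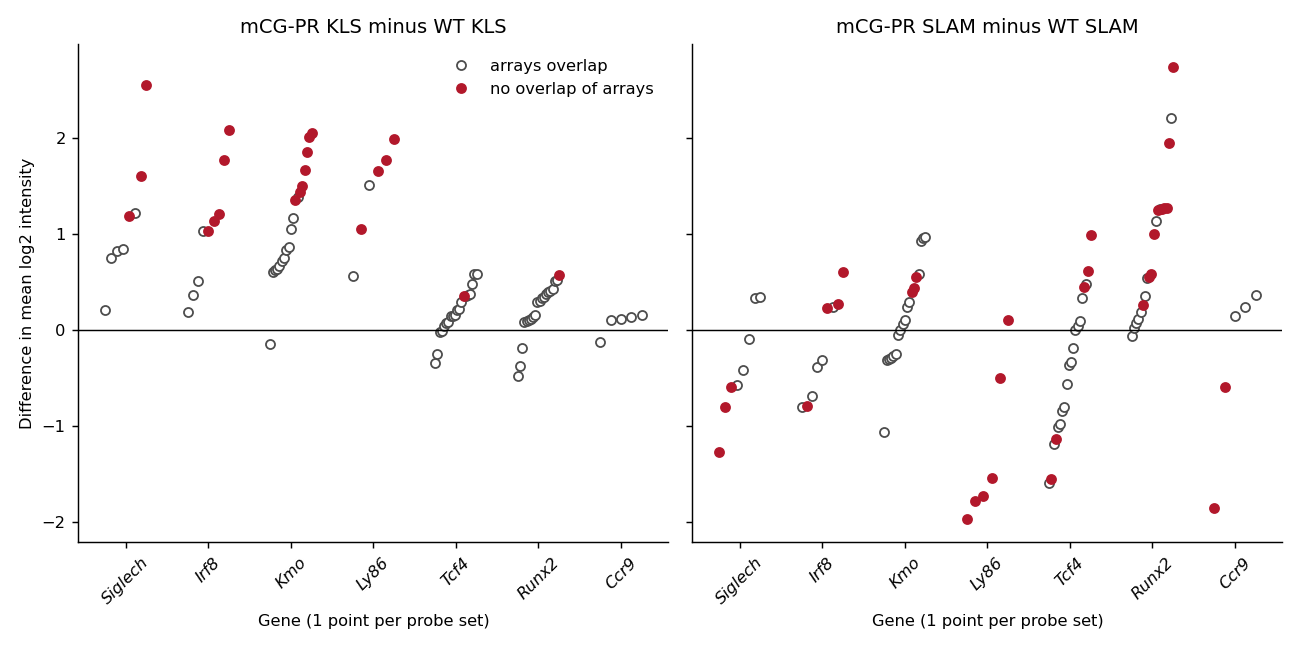
Difference in mean log2 intensity (vertical axis) of each probe set of the 7 genes between mCG-PR and WT cells, in KLS cells of both ages (left) and SLAM cells (right); filled points are probe sets whose mCG-PR and WT arrays do not overlap. The Siglech, Irf8, Kmo and Ly86 probe sets lie mostly above 0 in KLS cells, and 5 of 6 Ly86 probe sets lie under 0 in SLAM cells.

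Single arrays set part of the spread. WT KLS replicate 3 was the highest of the 4 WT KLS arrays for Siglech, Irf8, Kmo, Ly86 and Ccr9, and 31.9% of all genes were highest on that array. Its gap to the next WT array was widest for Ly86 (0.764 of that group's range), which Dixon's test at 95% does not call an outlier among 4. In young mCG-PR KLS cells, replicate 2 was the highest of 3 for Irf8, Kmo, Ly86, Tcf4 and Ccr9, and 40.4% of all genes were highest there. Over the 9 KLS arrays with group means removed, Ly86 varied with Kmo (Pearson r = 0.82), Ccr9 (0.81) and Tcf4 (0.77), while Siglech and Irf8 had r = -0.21. These are descriptions over 9 arrays, in which genes share the array's RNA and normalization.

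Split by age, the comparisons share their 4 WT KLS arrays. At 6 weeks the differences from WT KLS were 1.61 for Siglech, 1.47 for Irf8, 1.29 for Kmo, 1.07 for Ly86, 0.47 for Tcf4, 0.45 for Ccr9 and 0.29 for Runx2. The median of all genes was 0.11 there, and relative to it Irf8 differed by 1.36, Kmo by 1.18 and Ly86 by 0.96. At 13 weeks the differences were 0.98 for Siglech, 0.83 for Irf8, 0.87 for Kmo, 1.01 for Ly86, 0.34 for Tcf4, 0.48 for Ccr9 and 0.27 for Runx2. Against the WT KLS arrays of the same age, 13 weeks (n = 2 each), they were 1.10 for Siglech, 0.99 for Irf8, 1.02 for Kmo, 1.24 for Ly86, 0.38 for Tcf4, 0.26 for Runx2 and 0.91 for Ccr9. The Ccr9 value was 0.04 against the 12-week WT KLS arrays alone.

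Age within transgenic KLS cells is another contrast than the one that chose genes. It uses the same mCG-PR KLS arrays, so it is not independent of that choice. Siglech, Irf8 and Kmo were lower on both 13-week arrays than on all 3 arrays of 6 weeks, but no member passed the test. Siglech averaged 7.19 ± 0.002 at 13 weeks (SD, n = 2) and 7.82 ± 0.25 at 6 weeks (SD, n = 3), a difference of -0.64 ± 0.23 (limma adjusted p = 0.779). Irf8 differed by -0.64 ± 0.35 (limma adjusted p = 0.821) and Kmo by -0.42 ± 0.27 (limma adjusted p = 0.836). Arrays that all lie lower are common in a contrast this small, at 20.1% of all genes, and limma called 0 genes (0% of 10586; 669 at an unadjusted p under 0.05). Ly86 averaged 8.12 ± 0.44 at 13 weeks and 8.18 ± 0.50 at 6 weeks, and its arrays overlapped. Tcf4 differed by -0.13 and Runx2 by -0.02, also with overlap (limma adjusted p = 0.94 and 0.995).

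SLAM cells gave a comparison of genotype whose differences came from arrays that did not choose the genes. Its limma p-values used a spread pooled over all groups, including the KLS arrays that chose Siglech, Irf8, Kmo and Ly86. The SLAM groups were the noisier (median standard deviation within groups 0.325, against 0.217 for KLS). None of the 6 members tested passed between mCG-PR and WT SLAM cells, where limma called 2.6% of genes. It called 0 genes with the SLAM groups alone in the fit, and 3 with arrays weighted by sorted population. One of the 6, Kmo, was under the filter level on all 4 SLAM arrays. Siglech, the leading gene in KLS cells, had 6.21 and 5.65 in mCG-PR SLAM, against 6.49 and 6.31 in WT SLAM. Both mCG-PR arrays lay under both WT arrays, by -0.47 ± 0.25 (limma adjusted p = 0.362). The mCG-PR SLAM mean of Siglech, 5.93, lay under the filter level of 6, so this difference rests on a low signal. In a design of 2 against 2 arrays, 35.2% of all genes had no overlap in one direction or the other. Irf8 had 6.21 and 5.96 in mCG-PR SLAM, and 5.69 and 6.95 in WT SLAM, whose 2 arrays lay on both sides of the transgenic ones (-0.23 ± 0.38, limma adjusted p = 0.811). Kmo had 4.92 and 4.60 in mCG-PR SLAM and 4.91 and 4.67 in WT SLAM (-0.03 ± 0.30, limma adjusted p = 0.976). These levels lie under those of Ccr9, which was left untested as too low, and Kmo was tested only through its KLS values, so a genotype difference was not detectable at this signal. Tcf4 had 7.69 and 7.80 in mCG-PR SLAM, against 7.51 and 7.80 in WT SLAM (0.10 ± 0.22, limma adjusted p = 0.87). Its 20 probe sets did not follow that sign: 12 were lower and 7 higher in mCG-PR SLAM. Their differences ran from -1.59 to 0.99, with a median of -0.34.

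Ly86 and Runx2 had the largest differences between the SLAM groups, in opposite directions. Ly86 had 5.35 and 6.18 in mCG-PR SLAM, against 7.26 and 6.94 in WT SLAM, a difference of -1.33 ± 0.40 (limma adjusted p = 0.092). Its mCG-PR SLAM mean, 5.765, lay under the filter level of 6, so the size of this difference rests on a low signal. Of its 6 probe sets, 5 were lower on both mCG-PR arrays, against 16.6% of all probe sets. The adjusted p of Ly86 ran from 0.0413, without mCG-PR SLAM replicate 2, to 0.773, with only the SLAM groups in the fit. Neutrophil markers had the same sign: 6 of 8 were lower in mCG-PR SLAM, with a median of -1.83, and limma called Ltf and Ngp, both granule protein genes. Other markers also had mostly negative differences there, with none called: 0 of 6 B lineage markers were positive (median -0.34), 1 of 6 monocyte and macrophage markers (-0.54), 1 of 6 megakaryocyte markers (-0.32), 1 of 6 T and NK cell markers (-0.07) and 2 of 5 erythroid markers (-0.08). Array means of the monocyte and macrophage markers were 7.13 and 7.37 in mCG-PR SLAM, against 7.79 and 7.90 in WT SLAM, and those of the B lineage markers 6.48 and 6.50 in mCG-PR SLAM, against 6.48 and 7.33 in WT SLAM. The part of these cells in the Ly86 difference was not tested.

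Runx2 had 8.98 and 8.92 in mCG-PR SLAM, against 7.65 and 8.61 in WT SLAM, a difference of 0.82 ± 0.27 (limma adjusted p = 0.125). Of its 20 probe sets, 19 were higher in mCG-PR SLAM and 10 on both arrays, against 18% of all probe sets. WT SLAM replicate 1 weighed on that difference. On Runx2 probe sets 5578863, 4379461 and 4987471 it read 4.02, 3.19 and 4.65, lower than any other of the 13 arrays by 3.43, 3.27 and 2.85. Without it the Runx2 difference was 0.34 (limma adjusted p = 0.459), and without WT SLAM replicate 2 it was 1.30 (limma adjusted p = 0.0149). The call was also made with the mean of probe sets (limma adjusted p = 0.0263) and with quantile normalization (limma adjusted p = 0.0414). Ccr9 had 5.66 and 4.89 in mCG-PR SLAM and 4.90 and 5.18 in WT SLAM.

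The sorted populations of wild-type mice differed in Kmo and Tcf4. Limma called both lower in WT SLAM than in WT KLS cells, 2 of 6 members tested, where 9.21% of all genes were called lower. The WT SLAM mice were 6 weeks old and the WT KLS mice 12 to 13 weeks, so that age and population cannot be told apart. The WT KLS arrays also served the contrast that chose Siglech, Irf8, Kmo and Ly86. Kmo fell by 1.66 ± 0.26 (limma adjusted p = 0.00197, and 0.0032 with no filter on low values), with both WT SLAM arrays under all 4 WT KLS arrays. Its WT SLAM mean, 4.79, lay under the filter level of 6, against 6.45 in WT KLS, and the gene passed the filter through its KLS arrays, so the size of the difference rests on a low signal and no fold is given. Of its 19 probe sets, 17 were lower in WT SLAM and 14 on every array, against 14.8% of all probe sets. Probe set 5002139 read 3.33 and 4.19 in WT SLAM, against 7.82 to 8.89 in WT KLS, and probe set 5154388 read 4.97 and 3.86, against 7.42 to 9.05. In mCG-PR SLAM cells the same 2 probe sets read 3.57 to 3.94 and 2.44 to 4.27, so the low Kmo level was seen in SLAM cells of both genotypes. With any 1 of the 6 arrays left out, the adjusted p of Kmo stayed between 0.0031 and 0.0112.

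Tcf4 fell by 0.93 ± 0.19 (1.91-fold lower in WT SLAM, limma adjusted p = 0.00775), and both WT SLAM arrays lay under all 4 WT KLS arrays. Of its 20 probe sets, 16 were lower in WT SLAM, 7 of them on every array, against 14.8% of all probe sets, and 1 was higher on every array. Their differences ran from -1.56 to 0.53, with a median of -0.64, smaller than the difference of the gene value. Probe sets 4335610 and 5205633, those of highest signal, differed by only -0.18 and -0.03. The call was lost against the 13-week WT KLS arrays alone (limma adjusted p = 0.0662) and when arrays were weighted by sorted population (limma adjusted p = 0.0681). Tcf4 probe sets were uneven between SLAM replicates, with a median gap of 0.83 in mCG-PR and 1.06 in WT SLAM. On 4 of 20 probe sets, replicate 1 exceeded replicate 2 by over 1 in both SLAM groups.

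The remaining genes did not pass between the wild-type populations. Runx2 averaged 8.13 ± 0.68 in WT SLAM (SD, n = 2) and 8.72 ± 0.19 in WT KLS (SD, n = 4; limma adjusted p = 0.122). That difference, -0.59, was -0.11 without WT SLAM replicate 1 and -1.08, with a call, without replicate 2 (limma adjusted p = 0.789 and 0.00966). Siglech averaged 6.40 ± 0.13 in WT SLAM and 6.21 ± 0.25 in WT KLS (limma adjusted p = 0.617). Irf8 averaged 6.32 ± 0.89 in WT SLAM and 6.55 ± 0.23 in WT KLS (limma adjusted p = 0.699). Ly86 averaged 7.10 ± 0.23 in WT SLAM and 7.10 ± 0.47 in WT KLS (limma adjusted p = 0.997).

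**Figure D3:**
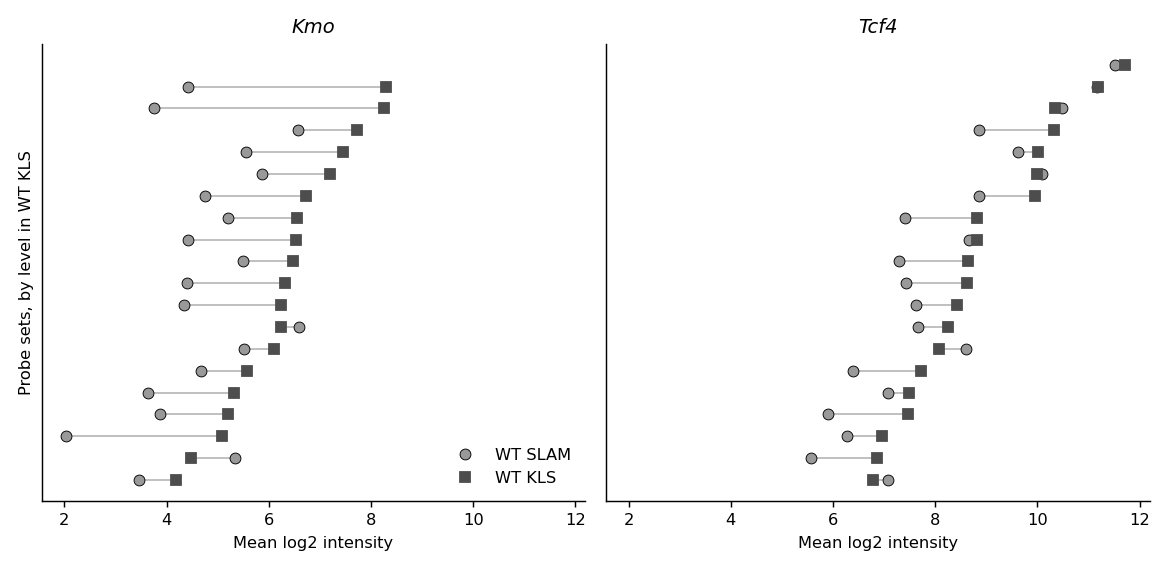
Mean log2 intensity (horizontal axis) of each probe set of Kmo and Tcf4 in WT SLAM (circles) and WT KLS cells (squares), ordered by level in WT KLS and joined by a line. Of the 19 Kmo probe sets 17 lie lower in WT SLAM, and of the 20 Tcf4 probe sets 16 do.

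Across the 5 groups the genes fell into different orders. Siglech, Irf8 and Kmo ran from mCG-PR KLS of 6 weeks through mCG-PR KLS of 13 weeks to lower values in the other groups, with no overlap at either of those first steps. For Siglech the WT KLS and both SLAM groups overlapped in their neighbouring pairs, so their order is not resolved. Kmo and Tcf4 had a further step without overlap between WT KLS and the SLAM groups, of 1.66 and 0.84. Ly86 stepped down without overlap between mCG-PR KLS of 13 weeks and WT KLS (1.01) and again between WT SLAM and mCG-PR SLAM (1.33). Its mCG-PR KLS arrays of 6 weeks overlapped those of WT KLS. All neighbouring groups overlapped for Runx2 and for Ccr9.

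Genes whose values over the 13 arrays were most like those of Siglech were Tmem183a (Pearson r = 0.877), Itpr1 (0.875), Zeb2 (0.874), Clec9a (0.868), Poc1a (0.866) and Ahsa1 (0.865). Zeb2, a zinc finger transcription factor, was on the list of plasmacytoid dendritic cell genes, and Clec9a, a receptor of cross-presenting dendritic cells, on that of conventional ones. Clec9a ran from 6.20 to 7.37 on the mCG-PR KLS arrays and from 5.95 to 6.72 on the WT KLS arrays. Of the members, Irf8 (0.834) ranked 14th and Kmo (0.805) 37th among genes tested, while Runx2 had r = 0.297. Kmo and Tcf4 had r = 0.96 over the 13 arrays. These coefficients describe arrays that include the genotype difference by which genes were chosen, and they are not independent of it.

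Other genes of the same cells and pathways were taken from lists, and limma called none of them between mCG-PR and WT KLS cells (0 of 10586 genes in all, 760 at an unadjusted p under 0.05, and up to 12 genes under other settings). Of the 21 tested plasmacytoid dendritic cell genes (30 listed, 28 measured), 15 had a positive difference, with a median of 0.30. Leading them were Ly6d, a surface protein of lymphoid and plasmacytoid progenitors (1.05 ± 0.27), Cox6a2 (0.93 ± 0.21), Atp1b1 (0.74 ± 0.21) and Bst2, the antigen of the antibody used to find these cells (0.73 ± 0.23). These 4, the largest differences of the list, had arrays without overlap and limma adjusted p from 0.341 to 0.497. In the whole list 6 of 21 genes were higher on every mCG-PR KLS array, against 3.55% of all genes. Of the 14 tested genes of dendritic and monocyte progenitors (16 listed), 13 were positive, with a median of 0.56. On every mCG-PR KLS array 3 of the 14 were higher. Among the 14, the chemokine receptor gene Ccr2 differed by 1.09 ± 0.40 and Clec12a by 0.92 ± 0.36. The granule enzyme gene Mpo differed by 0.78 ± 0.43 and the growth factor receptor gene Csf1r by 0.77 ± 0.19. The arrays of Clec12a, Mpo and Csf1r overlapped, and those of Ccr2 did not. Of the 16 tested conventional dendritic cell genes (28 listed), 12 were positive, with a median of 0.20. They were led by the transcription factor genes Nfil3 (0.88 ± 0.28) and Batf3 (0.58 ± 0.17), whose arrays overlapped. Of these 16 genes, 0 were higher on every mCG-PR KLS array. The median of all genes was 0.09 in the same comparison, and 7191 of 10586 genes were positive. The positive counts of the plasmacytoid and conventional lists lie near that share.

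Partner genes of the members were mixed in KLS cells, where 7191 of 10586 genes were positive and 3.55% were higher on every mCG-PR array. Tyrobp, the adaptor of Siglech, differed by 0.63 ± 0.33 and the related Siglec gene Cd33 by 0.56 ± 0.38, both without overlap. Of the 5 tested genes of the Siglec family list, which counts Tyrobp, 3 were positive (median 0.20). Of 6 other interferon regulatory factor genes 4 were positive, with a median of 0.07, and the largest was Irf9 (0.40 ± 0.19). E protein and Id genes had a median of 0.15 (4 of 5 positive), with Tcf12 at 0.35 ± 0.21 and Id2, which opposes E proteins, at 0.18 ± 0.24. Runx and Ets partner genes had a median of 0.02 (5 of 7 positive), with Ets1 at 0.53 ± 0.32 and Spi1 at 0.44 ± 0.22. Cd180, the receptor that Ly86 accompanies, differed by 0.35 ± 0.27, and its list of Toll-like receptor partners had a median of 0.28 (4 of 6 positive), with Tlr4 at -0.53 ± 0.18. Kynurenine pathway genes had a median of 0.02 (3 of 5 positive), with Kynu at 0.46 ± 0.36 and Haao at 0.42 ± 0.24. The chemokine receptor list, which also counts the chemokine gene Ccl25, had a median of 0.30 (3 of 6 positive). In it Cx3cr1 differed by 0.74 ± 0.16, Cxcr4 by 0.71 ± 0.20 and Ccl25 by -0.54 ± 0.38.

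Markers of other cells gave these values beside the member differences in KLS cells. Of the neutrophil markers 1 of 8 had a positive difference, with a median of -0.37, and array means of 8.11 to 8.99 in mCG-PR KLS against 8.75 to 8.90 in WT KLS. Monocyte and macrophage markers had a median of 0.10 (3 of 6 positive) and array means of 7.48 to 7.97 in mCG-PR KLS against 7.44 to 7.54 in WT KLS. B lineage markers had a median of 0.26 (5 of 6 positive), led by the adaptor gene Blnk, and array means of 6.79 to 7.08 in mCG-PR KLS against 6.58 to 6.91 in WT KLS. T and NK cell markers had a median of 0.14 (6 of 6 positive), with the NK receptor gene Klrd1 at 1.20 ± 0.27, and array means of 6.80 to 7.16 in mCG-PR KLS against 6.49 to 6.98 in WT KLS. Erythroid markers had a median of 0.21 (3 of 5 positive) and megakaryocyte markers one of 0.08 (4 of 6 positive). Of the KLS sort's own markers, Kit differed by -0.26 ± 0.17 and Ly6a by -0.53 ± 0.27. Slamf1 and Cd48, which belong to the SLAM sort, differed by -0.20 ± 0.24 and 0.39 ± 0.21. With the stem and progenitor cell genes Cd34, Procr and Hlf, which are named in neither sort, these 7 genes had a median of -0.26 (1 positive). No marker is at 0 on these arrays, and the part of these cells in the member differences was not tested.

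**Figure D4:**
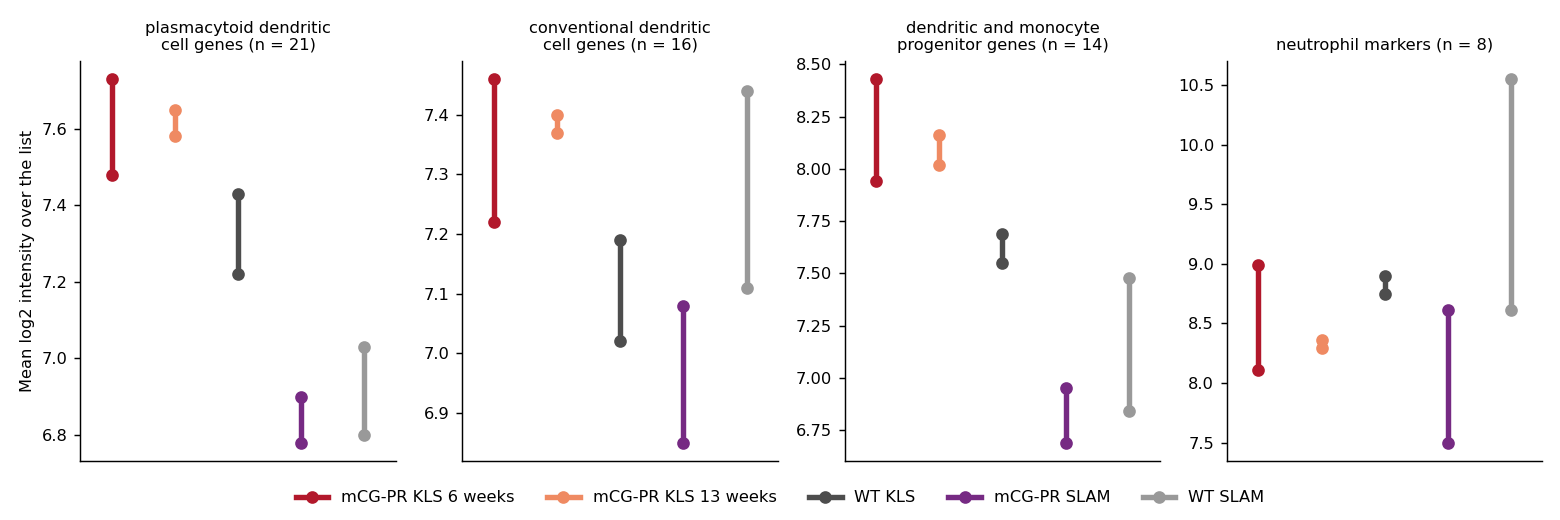
Range over arrays, in each group, of the mean log2 intensity over the tested genes of 4 lists (vertical axis, with its own scale in each panel; n is the number of genes; bars join the lowest and highest array). Plasmacytoid dendritic cell genes lie between 7.48 and 7.73 in mCG-PR KLS and between 7.22 and 7.43 in WT KLS cells, and neutrophil markers spread widest in WT SLAM cells.

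In the contrasts that did not choose the members, single genes of the lists were called. Those that include KLS cells share arrays with the contrast that chose Siglech, Irf8, Kmo and Ly86. The p-values between mCG-PR and WT SLAM cells also used the spread of the KLS arrays, through the shared limma fit. Between WT SLAM and WT KLS cells, limma called lower Dntt, the lymphoid DNA polymerase TdT (-5.05 ± 0.32, adjusted p = 3.35e-06), and Flt3, the receptor of dendritic cell progenitors (-2.67 ± 0.18, adjusted p = 3.35e-06). Both calls were kept with each array left out in turn. Of all genes, 9.21% were called lower. Tlr7, a sensor of RNA in plasmacytoid dendritic cells (-1.59 ± 0.35, limma adjusted p = 0.0111), Cd180 (-1.47 ± 0.35, limma adjusted p = 0.0182) and Runx3 (-0.91 ± 0.20, limma adjusted p = 0.0105) also fell, and each lost its call without WT SLAM replicate 1. Ly96, the relative of Ly86 that serves Tlr4 (-1.36 ± 0.34, limma adjusted p = 0.0217), was lost without that array or WT KLS replicate 1. Mpo and Kyat3 were called lower, and Batf3, Cadm1 and Gata2 higher, against 2.4% of all genes called higher, and each of these calls was lost when either of several single arrays was left out. Of the lists of other cells, Nkg7 (-2.20 ± 0.32) was lower, and C1qc (1.54 ± 0.31), C1qb (0.86 ± 0.24), Camp (1.34 ± 0.38) and Vwf (1.14 ± 0.15) were higher, where C1qb and Camp each lost the call without WT SLAM replicate 2, among others. Like Dntt, Tlr7 (5.52), Ly96 (5.61) and Kyat3 (5.54) averaged under the filter level of 6 in WT SLAM, and C1qc (5.83) did so in WT KLS. The sizes of these differences also rest on a low signal.

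Between mCG-PR and WT SLAM cells, limma called the dendritic list gene Ctsl lower (-1.16 ± 0.26, adjusted p = 0.0353). It called Cbfa2t3 (0.94 ± 0.23, adjusted p = 0.0496) and Flt3 (0.87 ± 0.21, adjusted p = 0.0445) higher. That is 1 lower and 1 higher of 21 plasmacytoid genes, 0 of 16 conventional and 1 of 14 progenitor genes, where 2.6% of all genes were called. Each of these calls was lost without WT SLAM replicate 2 or without mCG-PR SLAM replicate 1, and that of Flt3 also without mCG-PR SLAM replicate 2. Of 8 alternatives other than leaving out an array, 3 called Ctsl, 4 Cbfa2t3 and 3 Flt3. Ltf (-2.50 ± 0.49, limma adjusted p = 0.0211) and Ngp (-3.06 ± 0.75, limma adjusted p = 0.0498) were also lost without WT SLAM replicate 2. The 21 plasmacytoid dendritic cell genes had a median of -0.15 there (8 positive), the 16 conventional ones -0.20 (4 positive) and the 14 progenitor genes -0.22 (4 positive), against -0.02 for all genes. Between mCG-PR KLS cells of 13 and 6 weeks the same 3 lists had medians of 0.01, 0.12 and -0.04, with 0 genes called.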

How the data were processed

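Affymetrix Mouse Exon 1.0 ST arrays were read from the deposited table, whose values are linear intensity per probe set, normalized by the authors with RMA (version not given; build mm9), per the submitters' processing notes. All 13 arrays entered; 0 columns of per-sample values were left unused. Values were taken to log2 with no pseudocount, and a gene is the median of at least 3 probe sets listed with it alone (15123 genes, symbols updated through RefSeq where they matched). Genes under the 30th percentile of mean log2 were left out. Groups came from the labels. One limma fit over 5 groups (limma 3.58.1, R 4.3.3) gave each contrast, with Benjamini-Hochberg adjustment over 10586 genes at 0.05, and was tested on simulated data. The number of arrays limits the precision.

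The members and the gene lists were chosen with earlier results of these data known. All members were named, with up to 4 genes per list of largest absolute change, genes called in a contrast, and the 6 genes most correlated with Siglech. Other filters, summaries, scalings and array sets were alternatives; array weights by sorted population were added after seeing the data. Elements of the promoter sequences were counted with Python 3.11.15.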

Additional observations from a re-analysis of the deposited data

Results flagged for a closer look

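The genotype difference of Siglech had opposite signs in the sorted populations. It was 1.358 on the log2 scale in KLS cells, where all 5 mCG-PR arrays lay above all 4 WT arrays, and -0.466 in SLAM cells, where both mCG-PR arrays lay under both WT arrays. The KLS difference is one by which the gene was chosen, and the difference between the populations was not tested. Non-overlapping SLAM arrays were common (35.2% of all genes). Siglech averaged 5.93 in mCG-PR SLAM, under the filter level of 6, so the SLAM difference rests on a low signal.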

How the results depend on the processing

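Of 648 values of single members under an alternative, 612 kept their direction and their side of the threshold or moved by less than the spread, and in KLS cells 363 of 364 genotype differences were positive. Those 364 values reuse the KLS arrays by which Siglech, Irf8, Kmo and Ly86 were chosen as higher, so their sign is no separate support. With each array left out in turn, the median of the members against WT KLS ran from 0.902 to 1.28 for both ages, from 0.791 to 1.304 at 6 weeks and from 0.704 to 0.917 at 13 weeks. Replicate numbers did not pair the arrays (21 same-numbered pairs, correlations of deviations -0.07 to 0.08); with the replicate number as a block, the medians were 0.993, 0.995 and 0.844, and the block gave 69 genes between mCG-PR and WT SLAM and 410 between WT SLAM and WT KLS. The main counts were 275 and 1229 genes. The count of 275 was 171 with no filter, 421 with the mean of probe sets, 504 with quantile normalization (229 higher and 275 lower, against 92 and 183), 0 with the compared groups alone (664 at an unadjusted p under 0.05), 3 with array weights by sorted population and 371 to 825 with each array left out. Members called there were 0, and 1 with the mean of probe sets or quantile normalization, and 0 to 1 with each array left out. Between 13 and 6 weeks, 0 genes were called (1 with array weights), 0 to 0 with each array left out. Of the 1229 genes, weights gave 330, WT KLS of 12 weeks alone 439, WT KLS of 13 weeks alone 342, and leaving out each array 754 to 1360; quantile normalization gave 401 higher and 686 lower, against 254 and 975. Members called there were 2, and 1 with the filter at the 50th percentile (which leaves out Kmo), with weights or with WT KLS of 13 weeks alone, and 2 to 3 with each array left out. Between mCG-PR and WT KLS of both ages the count of 0 genes was 12 with array weights, 9 with the compared groups alone, 2 with no filter, 1 with the mean of probe sets, 2 with WT KLS of 13 weeks alone, 6 without WT KLS replicate 3 and 1 without WT KLS replicate 1. Some small differences changed sign, and the cause was not tested. Between SLAM groups these were Irf8 (-0.862 to 0.399 with each array left out, positive without WT SLAM replicate 2), Kmo (0.157 with the mean of probe sets, -0.186 to 0.132 with each array left out, and 0.09 without WT SLAM replicate 1) and Tcf4 (-0.376 with the mean of probe sets, -0.047 to 0.241 with each array left out, negative without WT SLAM replicate 1). Between 13 and 6 weeks they were Ly86 (0.117 with quantile normalization, -0.37 to 0.251 with each array left out, positive without 13 weeks replicate 1 and, at 0.223, without 6 weeks replicate 2), Tcf4 (0.104 with quantile normalization) and Runx2 (0.204 with quantile normalization, -0.104 to 0.065 with each array left out, positive without 6 weeks replicate 1 and, at 0.018, without 13 weeks replicate 1). Between WT SLAM and WT KLS they were Irf8 (-0.857 to 0.405 with each array left out, positive without WT SLAM replicate 1) and Ly86 (0.301 with the mean of probe sets, 0.03 with array medians subtracted, 0.107 with quantile normalization, 0.226 with WT KLS of 13 weeks alone, -0.161 to 0.229 with each array left out, positive without WT KLS replicate 3 and, at 0.158, without WT SLAM replicate 2). Ccr9, which has no test, changed sign too: between SLAM groups it was 0.239, and -0.335 with the mean of probe sets and -0.144 without mCG-PR SLAM replicate 1; between 13 and 6 weeks it was 0.028, and -0.132 with the mean of probe sets, -0.035 with quantile normalization, -0.494 without 13 weeks replicate 2 and -0.135 without 6 weeks replicate 3; between WT SLAM and WT KLS it was -0.354, and 0.08 with WT KLS of 13 weeks alone; between mCG-PR KLS of 13 weeks and WT KLS it was 0.477, and -0.046 without 13 weeks replicate 2. Array weights were chosen after seeing the data. Low intensity limits what Ccr9 can show.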
